A study of Homo sapiens with 9 samples.

Results

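The oxidative phosphorylation genes of human SKMEL-147 melanoma cells were examined after CRISPR-Cas9 targeting of PHF8, a histone demethylase that removes methyl groups from histone H3 and H4 tails. Members were taken from the deposited normalized count table by symbol: the nuclear families whose names begin with NDUFA, NDUFB, NDUFC, NDUFS, NDUFV, UQCR, ATP5 and COX4 to COX8, the 4 SDH genes and CYC1, without symbols that end in P and a number, which mark pseudogenes. The symbols matched 224 rows, 129 pseudogene rows were left out, and 95 of the 57736 rows remained. They comprised 72 subunits of the 5 complexes, 7 complex I assembly factors (NDUFAF1 to NDUFAF7), 7 tissue-restricted paralogs, 3 associated proteins and 6 copies, antisense or readthrough genes. The mitochondrially encoded subunits, whose symbols begin with MT-, were not analysed here, and neither were NDUFB8, SDHD and UQCR11.

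Total RNA was sequenced from 3 groups of 3 libraries, labelled A, B and C. All cells expressed Cas9 from a lentivirus and received a lentiviral single guide RNA (sgRNA): sgScr, a scrambled guide that served as control, or 1 of 2 guides against PHF8, sgPHF8-1 and sgPHF8-3. The cells were transduced populations of a single established line, and the replicates were separate biological samples of that line. In bulk RNA, a smaller fraction of edited cells and a smaller change in every cell cannot be told apart.

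Oxidative phosphorylation is carried out in the inner mitochondrial membrane. Complex I (NADH dehydrogenase) and complex II (succinate dehydrogenase) pass electrons to ubiquinone, complex III passes them on to cytochrome c, complex IV reduces oxygen, and complex V (ATP synthase) uses the proton gradient to make ATP. Most subunits are encoded in the nucleus, made in the cytosol and imported, whereas a small set of core subunits of complexes I, III, IV and V is encoded by mitochondrial DNA. Melanomas differ in how much they rely on this pathway or on glycolysis.

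Sequencing depth was similar in all libraries, between 17366120 and 19838142 counts. PHF8, the targeted gene, had 655, 606 and 634 normalized counts in the sgScr libraries, 564, 571 and 565 with sgPHF8-1 and 400, 387 and 434 with sgPHF8-3. Both PHF8 groups lay below every sgScr library, and sgPHF8-3 lay below sgPHF8-1. The log2 fold change of PHF8 was -0.16 (SE 0.05, edgeR adjusted p = 0.0272) with sgPHF8-1 and -0.64 (SE 0.06, edgeR adjusted p = 6.36e-09) with sgPHF8-3, and the difference between the guides was -0.48 (edgeR adjusted p = 3.86e-06). Transcript level does not measure how much functional protein an edited gene makes. Of 11 melanoma and neural crest markers, SOX10, MITF, AXL and NGFR were expressed, MLANA and TYR were at 0 in every library, and 7 in all stayed under 30 normalized counts. By edgeR, NGFR was lower with sgPHF8-1 (log2 -0.700) and with sgPHF8-3 (-0.289), as was SOX10 (-0.184 and -0.115). AXL (-0.015 and 0.066) and MITF (-0.144 and 0.139) did not pass with either guide. Summed, the 11 markers came to 42278 to 43082 normalized counts with sgScr, 37100 to 38319 with sgPHF8-1 and 40930 to 42136 with sgPHF8-3. Most of each sum was AXL. The 11 measured markers of fibroblast, immune, endothelial and epithelial cells summed to 2205 to 2340, 2635 to 2873 and 2362 to 2586 in the same order, with DCN and CD3E among those at 0 and 9 under 30 normalized counts; most of that sum was KRT18, which is also expressed by many cultured cells. The part of these marker differences in the results below was not tested. sgPHF8-1 B stood apart from the other libraries of its group on the second principal component (15.9 against 0.967 and 2.64), and the main counts below are also given without it. The sgPHF8-3 libraries were also spread on that component, at -6.08 (A), -11.4 (B) and -15.7 (C).

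With sgPHF8-1, a large minority of the respiratory transcripts were higher than with sgScr, by small amounts. Of 84 members with enough counts to test, 36 were higher (42.9%), against 15.2% of all 14614 genes tested, and 3 were lower (3.57%), against 15.7% of all genes (edgeR quasi-likelihood test, Benjamini-Hochberg adjusted p under 0.05). The higher members exceeded sgScr by at most 19.0% (NDUFS4). The median log2 fold change of the 84 members was 0.10, or 7.2%, beside 0.000 for all genes, and 67 members were above 0 (79.8%, against 50.1% of all genes). All 3 sgPHF8-1 libraries lay above all 3 sgScr libraries for 41 members (48.8%, against 21.1% of all genes) and below them for 3 (3.57%, against 21.1%). Only 2 members passed 0.25 on the log2 scale in either direction, against 3417 of all 14614 genes. They were NDUFS4 and NDUFA4L2, a low-count paralog that did not pass the test. DESeq2 called 22 higher (26.2%, against 11.4% of all genes) and 1 lower. The number of higher members was 23 without sgScr C (27.4%, against 11.7% of all genes) and 24 without sgPHF8-1 B (28.6%, against 13.4%). The number of lower members was 1 without sgScr C, sgPHF8-1 A or sgPHF8-1 C, and the median without sgPHF8-1 B was 0.067.

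With sgPHF8-3 the same transcripts stayed close to the control. Of the 84 members, 4 were higher (4.76%, against 9.48% of all genes) and 2 were lower (2.38%, against 9.78% of all genes). The median log2 fold change was 0.007, beside -0.001 for all genes, and 48 members were above 0 (57.1%, against 49.8% of all genes). Without 1 library the median ran from -0.005 (sgPHF8-3 A) to 0.030 (sgPHF8-3 C) and was also below 0 without sgScr A (-0.003), so its direction is not set. DESeq2 called 1 higher and 1 lower. The 3 libraries lay above all sgScr libraries for 15 members (17.9%, against 18.7% of all genes) and below them for 7 (8.33%, against 17.8%). No member reached a log2 change of 0.25, which 2556 of all 14614 genes passed in either direction. The higher count was 1 without sgScr C, 2 without sgScr B, sgPHF8-3 A or sgPHF8-3 B, and 8 without sgPHF8-1 B, a library of neither group compared here. Those 8 were 9.52%, against 11.6% of all genes in that fit. The lower count was 1 without sgScr C or sgPHF8-3 C and 4 without sgPHF8-1 B.

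**Figure D1:**
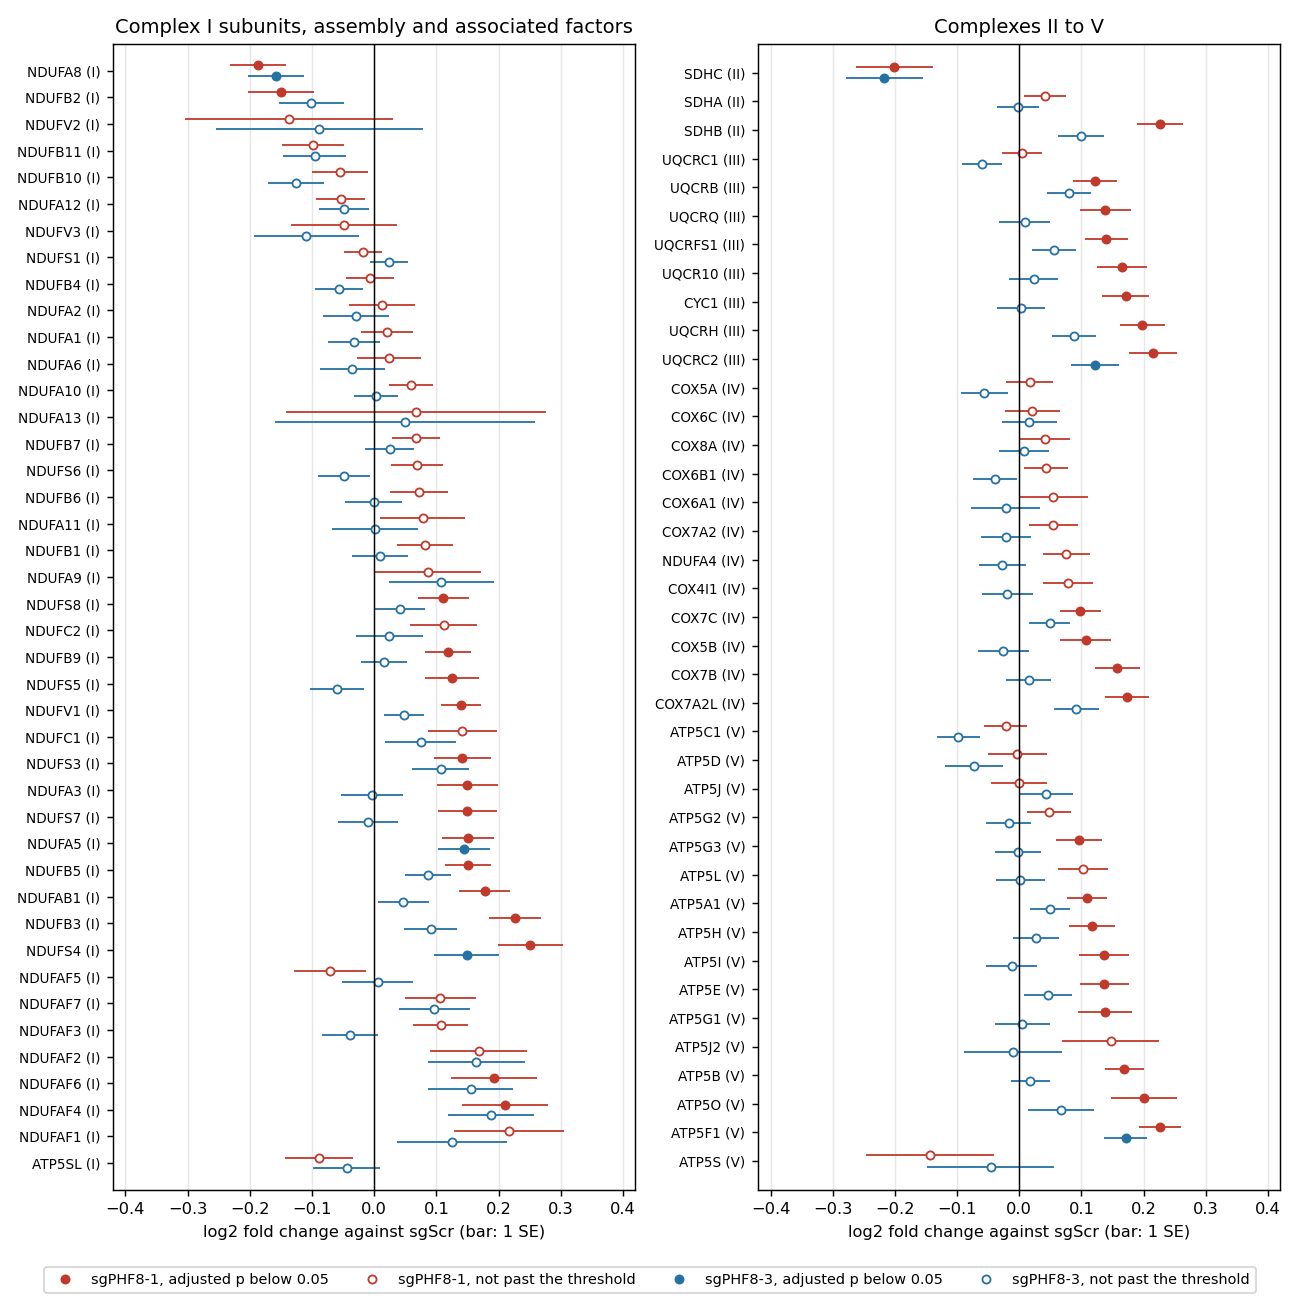
Log2 fold change of tested subunits, assembly factors and associated proteins against sgScr (x axis; bars, 1 SE) with sgPHF8-1 (red) and sgPHF8-3 (blue), by complex (numeral after the symbol); filled points had an adjusted p under 0.05. Of all 84 tested members, 36 were higher with sgPHF8-1 and 4 with sgPHF8-3, and most red points sit to the right of their blue partners; not all tested members are drawn.

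**Figure D2:**
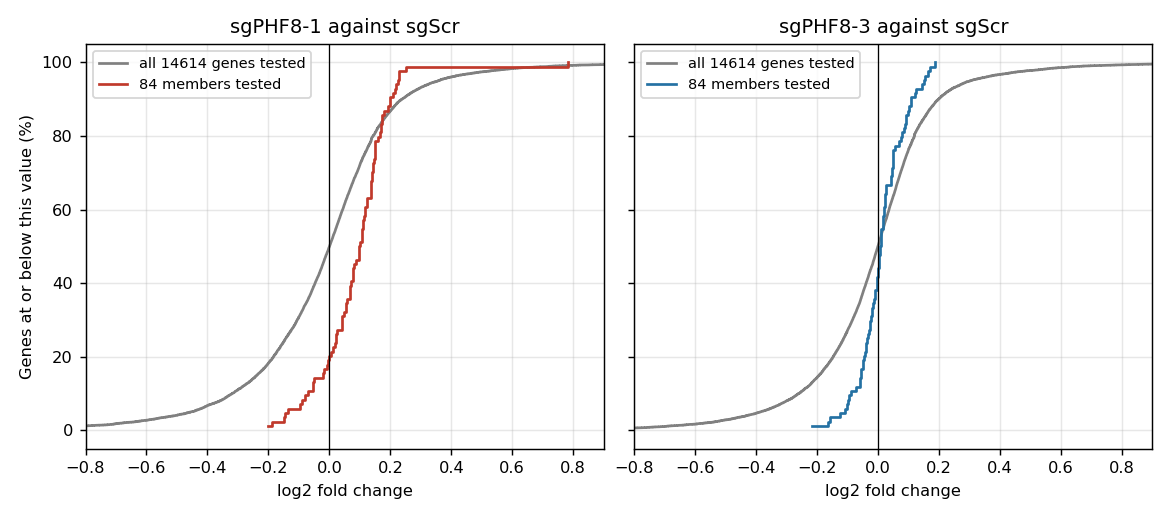
Share of genes (y axis, percent) at or below each log2 fold change against sgScr (x axis) for the 84 tested members (colour) and all 14614 tested genes (grey), with sgPHF8-1 at left and sgPHF8-3 at right. With sgPHF8-1 the members' curve crosses 50% at 0.10 while that of all genes crosses at 0.000, and with sgPHF8-3 both cross near 0.

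By edgeR, a direct comparison of the guides set them apart. Relative to sgPHF8-1, 15 members were lower with sgPHF8-3 (17.9%, against 4.74% of all genes) and 0 were higher (0%, against 5.83% of all genes; 0 by DESeq2 as well). DESeq2 called 4 of 79 members lower, a share close to that of all genes (399 of 9317). At an unadjusted p under 0.05, 33 of the 84 members differed between the guides, against 3512 of all 14614 genes, and 11 members were above 0 (13.1%, against 49.8% of all genes). The median log2 difference was -0.073, beside -0.001 for all genes; it was -0.047 without sgPHF8-1 B and -0.054 without sgPHF8-3 C. Of the 15 members that were lower with sgPHF8-3, 14 were also members that exceeded sgScr with sgPHF8-1; the exception was NDUFAF3. Since both comparisons use the sgPHF8-1 libraries, the overlap is not independent evidence. The count of lower members fell to 3 without sgPHF8-3 C, 5 without sgPHF8-3 B, 7 without sgPHF8-1 B and 9 without sgScr A. Over all genes, the same fits called 409 of 14889, 382 of 14890, 650 of 14905 and 594 of 14849 lower.

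Across both guides, 6 members differed from sgScr in the same direction: NDUFA5, NDUFS4, UQCRC2 and ATP5F1 were higher (4.76%, against 6.42% of all genes), and NDUFA8 and SDHC were lower (2.38%, against 7.26% of all genes). These shares do not exceed those of all genes, and the members are listed as a description. Both comparisons share the same sgScr libraries.

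ATP5F1 (now ATP5PB; ENSG00000116459, chr1:111991486-112005395, plus strand, GRCh37) encodes subunit b of the peripheral stalk that holds the catalytic head of ATP synthase in place. It had 3221, 3302 and 3273 normalized counts in the sgScr libraries, 3867, 3987 and 3606 with sgPHF8-1, and 3737, 3611 and 3684 with sgPHF8-3. Every library of both PHF8 groups exceeded every sgScr library. The log2 fold change was 0.23 (SE 0.03, edgeR adjusted p = 1.07e-05) with sgPHF8-1 and 0.17 (SE 0.03, edgeR adjusted p = 0.0007) with sgPHF8-3, increases of 17% and 12.6%. Counts may include reads shared with its 7 pseudogene rows and with WDR77 on the opposite strand. ATP5F1 was the single member that kept its call against sgScr with both guides by DESeq2 and without each library in turn.

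UQCRC2 (ENSG00000140740, chr16:21964609-21994981, plus strand) encodes a core protein of complex III that faces the matrix. Its counts were 2057, 2004 and 2027 with sgScr, 2234, 2519 and 2321 with sgPHF8-1, and 2268, 2215 and 2142 with sgPHF8-3. Neither PHF8 group overlapped the control. The increase was 16.1% (log2 0.22, SE 0.04, edgeR adjusted p = 7.01e-05) with sgPHF8-1 and 8.82% (log2 0.12, SE 0.04, edgeR adjusted p = 0.0234) with sgPHF8-3. The sgPHF8-3 call was lost by DESeq2 (adjusted p = 0.0617) and without sgScr B (0.093), sgScr C (0.068), sgPHF8-3 A (0.11) or sgPHF8-3 B (0.0753).

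NDUFS4 (ENSG00000164258, chr5:52856463-52979168, plus strand) is an accessory subunit of the matrix arm of complex I, and its loss causes Leigh syndrome, a mitochondrial disease. Counts were 940, 886 and 925 with sgScr, 1083, 1181 and 1012 with sgPHF8-1, and 1095, 990 and 964 with sgPHF8-3. Both groups lay above the control. It had the largest increase of the members called with sgPHF8-1, 19.0% (log2 0.25, SE 0.05, edgeR adjusted p = 0.00048), and increased by 10.9% with sgPHF8-3 (log2 0.15, SE 0.05, edgeR adjusted p = 0.0439). The sgPHF8-3 increase did not pass by DESeq2 (adjusted p = 0.118), and without single libraries its edgeR adjusted p reached 0.294 (sgPHF8-3 A), 0.177 (sgScr B), 0.0886 (sgScr C), 0.0651 (sgPHF8-3 B), 0.065 (sgScr A) and 0.0506 (sgPHF8-1 A).

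NDUFA5 (ENSG00000128609, chr7:123177051-123197958, minus strand), another accessory subunit of the matrix arm, had 999.9, 1012 and 993 counts with sgScr, 1126, 1154 and 1057 with sgPHF8-1 and 1110, 1075 and 1136 with sgPHF8-3. The PHF8 groups coincided with each other and lay above the control. The increases were 11% (log2 0.15, SE 0.04, edgeR adjusted p = 0.00667) and 10.5% (log2 0.14, SE 0.04, edgeR adjusted p = 0.0149), with a difference between guides of -0.007 (SE 0.04). The sgPHF8-3 call was lost by DESeq2 (adjusted p = 0.0678) and without sgScr A (0.0519), sgScr C (0.0537) or sgPHF8-3 C (0.06). NDUFA5 has 12 pseudogene rows in the table, with which reads may be shared.

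NDUFA8 (ENSG00000119421, chr9:124906337-124922058, minus strand), an accessory subunit on the intermembrane space side of complex I, went the other way. It had 872, 867 and 856 counts with sgScr, 746, 794 and 741 with sgPHF8-1 and 781, 793 and 752 with sgPHF8-3, so that all PHF8-targeted libraries lay below the control. The change was -12.2% (log2 -0.19, SE 0.05, edgeR adjusted p = 0.00212) with sgPHF8-1 and -10.4% (log2 -0.16, SE 0.05, edgeR adjusted p = 0.0133) with sgPHF8-3. The sgPHF8-3 call was lost by DESeq2 (adjusted p = 0.0726) and without sgPHF8-3 C (0.0585).

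SDHC (ENSG00000143252, chr1:161284171-161332996, plus strand) encodes a membrane anchor of succinate dehydrogenase that helps to hold its heme. It had 609.6, 644 and 684 counts with sgScr, 547, 629 and 512 with sgPHF8-1, and 549.7, 575 and 542 with sgPHF8-3. The sgPHF8-3 libraries were all below the control, whereas sgPHF8-1 B exceeded the lowest sgScr library. The change was -13.0% (log2 -0.20, SE 0.06, edgeR adjusted p = 0.0146) with sgPHF8-1 and -13.9% (log2 -0.22, SE 0.06, edgeR adjusted p = 0.0144) with sgPHF8-3. The sgPHF8-1 call was lost by DESeq2 (adjusted p = 0.0539) and without sgPHF8-1 C (0.112), sgScr C (0.101) or sgPHF8-1 A (0.06), and the sgPHF8-3 call was lost without sgScr C (0.099). SDHC has 4 pseudogene rows in the table, and how reads shared with such copies were counted is not given in the sources used here.

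**Figure D3:**
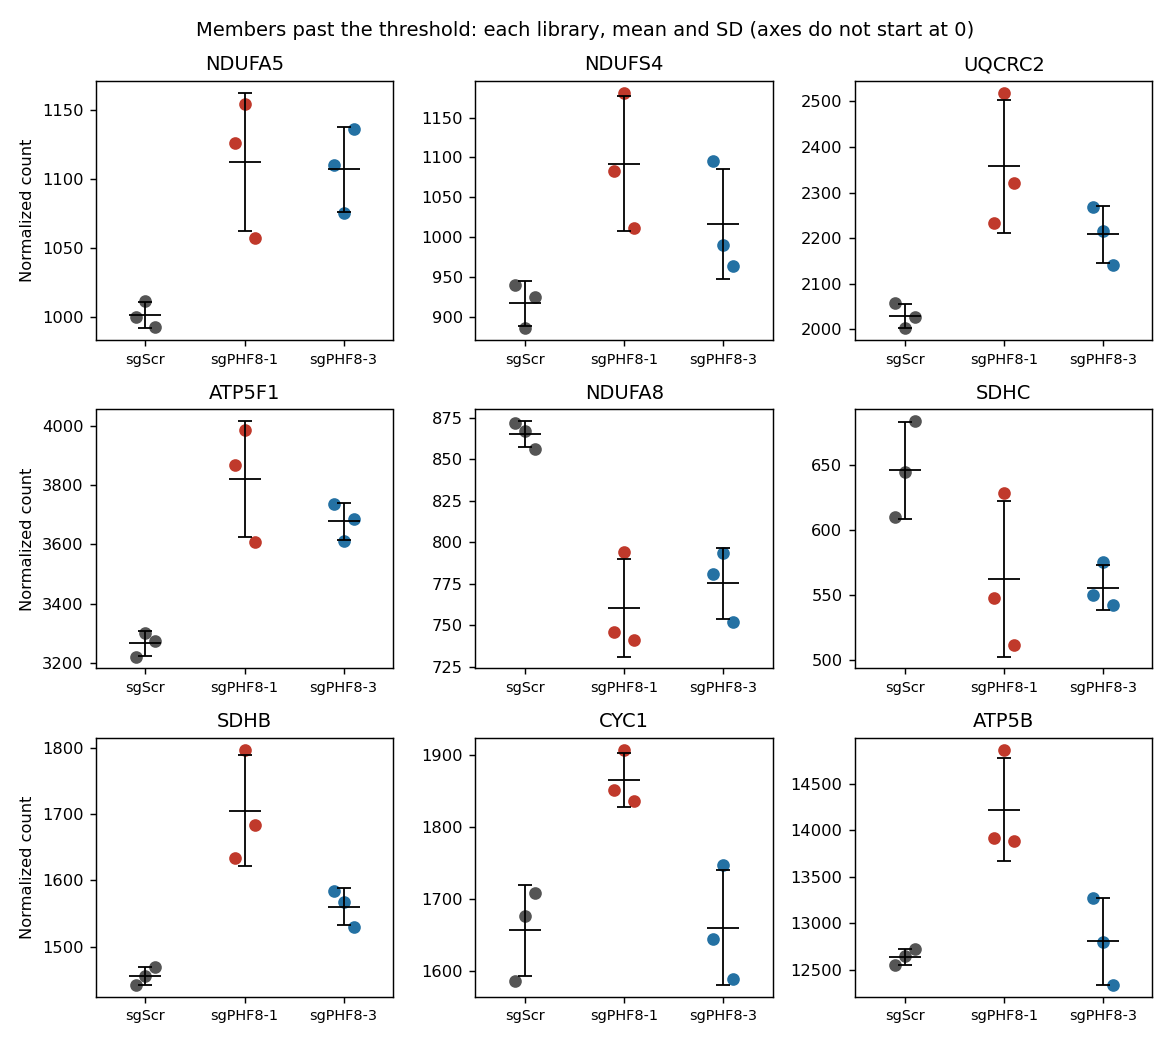
Normalized count (y axis, not starting at 0) of 9 members in each library by group, with the group mean (bar) and SD. NDUFA5, NDUFS4, UQCRC2 and ATP5F1 are above sgScr in both PHF8 groups, NDUFA8 is below it in both, and for CYC1 and ATP5B the sgPHF8-3 libraries overlap those of sgScr while the sgPHF8-1 libraries lie above.

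The stretches upstream of 4 of these 6 genes are shown because the same genes were called with both guides and each has a single listed start; they run from 250 bases before to 20 bases after the start (RefSeq, GRCh38.p14), 5′ to 3′ along the gene's strand. NDUFA5 has several listed starts and SDHC is not in the table used. Capitals mark exact matches, on either strand, to GCGCATGC (the core of the NRF1 site), CCGGAAGT (an ETS-family site), CTCGCGAG (a palindrome) and AAGATGGC (the core of the YY1 site); the NRF1, ETS and YY1 families are known regulators of respiratory genes.
NDUFA8 (chr9:122159760-122160029, minus strand): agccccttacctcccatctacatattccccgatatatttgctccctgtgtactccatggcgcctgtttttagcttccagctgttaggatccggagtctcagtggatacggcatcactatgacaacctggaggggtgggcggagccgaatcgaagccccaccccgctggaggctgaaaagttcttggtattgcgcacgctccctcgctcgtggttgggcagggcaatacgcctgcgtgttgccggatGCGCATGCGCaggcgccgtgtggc
NDUFS4 (chr5:53560389-53560658, plus strand): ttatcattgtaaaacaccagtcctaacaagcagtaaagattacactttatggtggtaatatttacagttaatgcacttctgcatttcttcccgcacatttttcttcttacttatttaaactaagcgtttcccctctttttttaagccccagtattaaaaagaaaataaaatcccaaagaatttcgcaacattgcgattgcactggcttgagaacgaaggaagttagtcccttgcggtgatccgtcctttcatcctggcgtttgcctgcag
UQCRC2 (chr16:21953111-21953380, plus strand): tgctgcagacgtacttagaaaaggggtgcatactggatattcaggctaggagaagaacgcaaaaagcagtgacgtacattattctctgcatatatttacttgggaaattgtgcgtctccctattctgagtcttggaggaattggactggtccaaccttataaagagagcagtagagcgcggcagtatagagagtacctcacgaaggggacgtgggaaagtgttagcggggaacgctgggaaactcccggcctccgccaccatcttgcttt
ATP5F1 (chr1:111449214-111449483, plus strand): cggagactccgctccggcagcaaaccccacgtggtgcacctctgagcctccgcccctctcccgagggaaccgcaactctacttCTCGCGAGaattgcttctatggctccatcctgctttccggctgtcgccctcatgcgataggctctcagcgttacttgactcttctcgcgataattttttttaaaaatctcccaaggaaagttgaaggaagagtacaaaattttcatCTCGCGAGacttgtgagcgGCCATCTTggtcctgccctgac
The NDUFA8 stretch holds 2 overlapping NRF1 cores next to the start, and the ATP5F1 stretch holds 2 copies of the palindrome and 1 YY1 core. The NDUFS4 and UQCRC2 stretches, with a GC content of 38.5% and 48.9%, hold none of these letters. Over the 67 tested members with an entry (82 starts), the NRF1 core stood in 20.7% of starts, against 2.93% of 35116 starts in the table, the ETS site in 11%, against 4%, the YY1 core in 7.32%, against 1.93%, and the palindrome in 2.44%, against 0.985%. These are matches of letters and not measured binding.

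Complex I, the entry point for electrons from NADH, held both higher and lower subunits. Of its 35 tested subunits, 13 were higher and 2 lower with sgPHF8-1 (median log2 fold change 0.078), and 2 were higher and 1 lower with sgPHF8-3 (median 0.003). The sgPHF8-1 shares were 37.1% higher and 5.71% lower, against 15.2% and 15.7% of all genes. DESeq2 called 6 higher and 1 lower, and without sgPHF8-1 B 8 were higher and 3 lower. Of all genes, 11.4% were higher by DESeq2 and 13.4% without sgPHF8-1 B. The sgPHF8-3 shares, 5.71% higher and 2.86% lower, lay below the 9.48% and 9.78% of all genes, and DESeq2 called 0 in either direction. At an unadjusted p under 0.05, 5 were higher and 2 lower with sgPHF8-3, where 4625 of all 14614 genes passed in either direction. Among the core subunits that carry the flavin and iron-sulfur clusters, NDUFV1 was higher with sgPHF8-1 and NDUFS1 was not. NDUFV1, which binds NADH, had 2464, 2424 and 2512 counts with sgScr, 2793, 2674 and 2685 with sgPHF8-1, and 2532, 2576 and 2547 with sgPHF8-3. Both groups lay above the control, by 10.2% with sgPHF8-1 (log2 0.14, SE 0.03, edgeR adjusted p = 0.00147) and by a value that did not pass with sgPHF8-3 (log2 0.05, SE 0.03, edgeR adjusted p = 0.321). NDUFS1, the largest iron-sulfur subunit, had 3775, 3858 and 3846 counts with sgScr, 3720, 3844 and 3774 with sgPHF8-1 and 3926, 3851 and 3899 with sgPHF8-3. Both groups overlapped the control, at log2 -0.02 (SE 0.03) and 0.02 (SE 0.03).

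Several small accessory and core subunits separated the guides. NDUFB3, of the membrane arm, had 945, 964 and 932 counts with sgScr, 1132, 1148 and 1046 with sgPHF8-1 and 1026, 1005 and 994 with sgPHF8-3. The 3 groups did not overlap at all, with sgPHF8-3 between the others. The increase with sgPHF8-1 was 17% (log2 0.23, SE 0.04, edgeR adjusted p = 0.000153), that with sgPHF8-3 did not pass (log2 0.09, SE 0.04, edgeR adjusted p = 0.143), and the difference between the guides was -0.14 (SE 0.04, edgeR adjusted p = 0.0377). That difference did not pass by DESeq2 (adjusted p = 0.123), with no filter on low counts (0.0701), with only the 2 groups compared (0.0687), or without sgPHF8-1 A (0.151), sgPHF8-1 B (0.11), sgPHF8-3 A (0.0525), sgPHF8-3 B (0.11), sgPHF8-3 C (0.114) or sgScr A (0.0523).

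NDUFS5, an accessory subunit facing the intermembrane space, had 1964, 2008 and 1905 counts with sgScr, 2134, 2319 and 1961 with sgPHF8-1 and 1899, 1938 and 1799 with sgPHF8-3. Its sgPHF8-1 and sgScr libraries overlapped, while the guides did not. The guides differed by -0.19 (SE 0.04, edgeR adjusted p = 0.00642), or -12.1%, the largest difference among the members called between the guides; it passed by DESeq2 and without each library in turn. Against sgScr, the log2 change of 0.13 with sgPHF8-1 (SE 0.04, edgeR adjusted p = 0.0285) was lost by DESeq2 (adjusted p = 0.0724) and fell to 0.07 without sgPHF8-1 B (0.206); it was also lost without sgScr A (0.073), sgScr C (0.125) or sgPHF8-1 A (0.0645). NDUFS5 has 6 pseudogene rows in the table.

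NDUFS7, the core subunit with the last iron-sulfur cluster before ubiquinone, had 800, 878 and 817 counts with sgScr, 929, 917 and 923 with sgPHF8-1 and 878, 818 and 780 with sgPHF8-3. The sgPHF8-1 libraries lay close together and above all others. The difference between guides was -0.16 (SE 0.05, edgeR adjusted p = 0.0342), and the increase with sgPHF8-1 was 11% (log2 0.15, SE 0.05, edgeR adjusted p = 0.0188). Neither passed by DESeq2 (adjusted p = 0.0974 and 0.0738). The difference between guides was also lost without sgPHF8-1 A (0.103), sgPHF8-1 C (0.0719), sgPHF8-3 B (0.115) or sgPHF8-3 C (0.178), and the increase without sgScr A (0.108), sgScr C (0.0713) or sgPHF8-1 A (0.0586).

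NDUFB2, of the membrane arm, was the other complex I subunit that was lower with sgPHF8-1. Its counts were 730.4, 729 and 770.0 with sgScr, 656, 724 and 632 with sgPHF8-1 and 725, 687 and 666 with sgPHF8-3. Both groups lay below the control, by log2 -0.15 (SE 0.05, edgeR adjusted p = 0.0317) with sgPHF8-1 and by a value that did not pass with sgPHF8-3 (-0.10, SE 0.05, edgeR adjusted p = 0.187). The call was lost by DESeq2 (adjusted p = 0.117) and without sgPHF8-1 C (0.157), sgScr C (0.14), sgPHF8-1 A (0.109) or sgScr B (0.052). Other higher subunits with sgPHF8-1 included NDUFA3, NDUFAB1, NDUFB5, NDUFB9, NDUFS3 and NDUFS8, of which NDUFAB1, the mitochondrial acyl carrier protein, gained most (13.2%). NDUFV2 and NDUFA13 had at most 72.2 and 39.5 normalized counts in any library, and a same-strand gene overlaps each, so their levels are uncertain.

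The 7 complex I assembly factors, which build the complex but are not part of it, sat above the control with both guides in the median (log2 0.17 and 0.13), although by edgeR 2 passed with sgPHF8-1 (28.6%, against 15.2% of all genes) and 0 with sgPHF8-3 (against 9.48% of all genes). At an unadjusted p under 0.05, 5 were higher with sgPHF8-1 and 3 with sgPHF8-3. At that threshold, 5819 and 4625 of all 14614 genes passed in either direction. By DESeq2 0 of these assembly factors passed with either guide. NDUFAF4 had 427, 360 and 401 counts with sgScr, 481, 467 and 424 with sgPHF8-1 and 482, 439 and 430.3 with sgPHF8-3. Only sgPHF8-3 lay wholly above the control, since sgPHF8-1 C was just under sgScr A. The log2 change was 0.21 (SE 0.07, edgeR adjusted p = 0.0221) and 0.19 (SE 0.07, edgeR adjusted p = 0.0568). NDUFAF6 had 289.9, 305 and 278 counts with sgScr, 336, 329 and 334 with sgPHF8-1 and 341, 323 and 308 with sgPHF8-3. Neither PHF8 group overlapped the control, at 0.19 (SE 0.07, edgeR adjusted p = 0.0335) and 0.16 (SE 0.07, edgeR adjusted p = 0.121).

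Complex II, which links the citric acid cycle to the respiratory chain and is made from nuclear genes alone, split by subunit. SDHB, the iron-sulfur subunit (ENSG00000117118, chr1:17345159-17380527, minus strand), had 1442, 1455 and 1469 counts with sgScr, 1634, 1797 and 1684 with sgPHF8-1 and 1584, 1567 and 1530.0 with sgPHF8-3. The groups were fully separated, in the order sgScr, sgPHF8-3, sgPHF8-1. The gain was 17.1% with sgPHF8-1 (log2 0.23, SE 0.04, edgeR adjusted p = 2.64e-05), that with sgPHF8-3 did not pass (log2 0.10, SE 0.04, edgeR adjusted p = 0.0568), and the guides differed by -0.13 (SE 0.04, edgeR adjusted p = 0.0249). The difference between the guides was lost by DESeq2 (adjusted p = 0.0804), with only the 2 groups compared (0.0536) and without sgPHF8-1 B (0.122), sgPHF8-3 B (0.0738) or sgPHF8-3 C (0.0958), and the sgPHF8-3 change passed with only the 2 groups compared (0.033) and without sgPHF8-1 B (0.0267). SDHA, the flavoprotein with the succinate site, had 2629, 2779 and 2842 counts with sgScr, 2853, 2878 and 2761 with sgPHF8-1 and 2746, 2759 and 2736 with sgPHF8-3. Both groups overlapped the control, at log2 0.04 (SE 0.03) and -0.002 (SE 0.03). SDHB and SDHC, which belong to the same complex, therefore differed from sgScr in opposite directions with sgPHF8-1.

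Complex III had the largest share of higher members with sgPHF8-1, 7 of 8 subunits (median log2 fold change 0.15), and 1 of 8, UQCRC2, with sgPHF8-3 (median 0.040). The higher shares were 87.5%, against 15.2% of all genes, and 12.5%, near the 9.48% of all genes. DESeq2 also called 7 higher with sgPHF8-1, and 6 were higher without sgPHF8-1 B. CYC1, cytochrome c1, had 1586, 1676 and 1708 counts with sgScr, 1852, 1908 and 1837 with sgPHF8-1 and 1645, 1747 and 1589 with sgPHF8-3. The sgPHF8-1 libraries lay above all others, and those of sgPHF8-3 overlapped the controls. The increase with sgPHF8-1 was 12.6% (log2 0.17, SE 0.04, edgeR adjusted p = 0.00104), the change with sgPHF8-3 was 0.003 (SE 0.04), and the difference between them of -0.17 (SE 0.04, edgeR adjusted p = 0.00492) passed by DESeq2 and without each library in turn. UQCRFS1, the Rieske iron-sulfur protein, had 2001, 1917 and 1995 counts with sgScr, 2144, 2241 and 2133 with sgPHF8-1 and 2109, 2065 and 1972 with sgPHF8-3. It was 10.2% higher with sgPHF8-1 (log2 0.14, SE 0.04, edgeR adjusted p = 0.00277), without overlap, and overlapped the control with sgPHF8-3 (log2 0.06, SE 0.04). UQCRH, the hinge protein of complex III, gained 14.7% with sgPHF8-1, and the smaller subunits UQCR10, UQCRB and UQCRQ gained between 8.82% and 12.1%. The exception was UQCRC1, the other core protein, with 4449, 4547 and 4558 counts with sgScr, 4450, 4661 and 4485 with sgPHF8-1 and 4509, 4316 and 4175 with sgPHF8-3. UQCRC1 overlapped the control with both guides, at log2 0.004 (SE 0.03) and -0.06 (SE 0.03), whereas its partner UQCRC2 was higher with both.

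Complex IV, cytochrome c oxidase, passes the electrons on to oxygen, and differences between complexes were not tested. With sgPHF8-1, 3 of 11 nuclear subunits were higher (COX5B, COX7B and COX7C; median log2 fold change 0.055), and with sgPHF8-3 0 of 11 passed in either direction by edgeR (median -0.021), as by DESeq2 and at an unadjusted p under 0.05. The higher shares were 27.3% and 0%, against 15.2% and 9.48% of all genes. With sgPHF8-1, DESeq2 called 2 of 11 higher, against 11.4% of all genes. Without sgPHF8-1 B, 1 of 11 was higher, against 13.4% of all genes. COX7B, a small membrane subunit, had 1849, 1894 and 1891 counts with sgScr, 2101, 2155 and 2033 with sgPHF8-1 and 1926, 1964 and 1801 with sgPHF8-3. It was 11.6% higher with sgPHF8-1 (log2 0.16, SE 0.04, edgeR adjusted p = 0.00123), and the guides differed by -0.14 (SE 0.04, edgeR adjusted p = 0.0102; 0.0765 without sgPHF8-3 C). COX4I1, COX5A and COX6C did not pass. COX4I1 had 2768, 2828 and 2881 counts with sgScr, 2809, 3206 and 2942 with sgPHF8-1 and 2953, 2717 and 2695 with sgPHF8-3, at log2 0.08 (SE 0.04, edgeR adjusted p = 0.151; 0.0386 without sgPHF8-1 A) and -0.02 (SE 0.04). COX5A had 1400.0, 1409 and 1443 counts, 1438, 1510.0 and 1358, and 1367, 1369 and 1354 in the same order of groups, at log2 0.02 (SE 0.04) and -0.06 (SE 0.04). COX6C had 1358, 1329 and 1282 counts, 1357, 1446 and 1227, and 1356, 1338 and 1319, at log2 0.02 (SE 0.04; -0.03 without sgPHF8-1 B) and 0.02 (SE 0.04). All 3 overlapped the control with sgPHF8-1, and COX5A lay just below it with sgPHF8-3.

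COX7A2L, which ties complexes III and IV into supercomplexes, had 1771, 1708 and 1742 counts with sgScr, 1949, 2058 and 1883 with sgPHF8-1 and 1895, 1847 and 1821 with sgPHF8-3. Both groups lay above the control. The increase with sgPHF8-1 was 12.7% (log2 0.17, SE 0.04, edgeR adjusted p = 0.000459), and the change with sgPHF8-3 did not pass (log2 0.09, SE 0.04, edgeR adjusted p = 0.0723; 0.0427 with only the 2 groups compared, 0.0353 without sgPHF8-1 B).

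The paralogs that replace common complex IV subunits in muscle, lung, testis or hypoxic cells were nearly silent. COX4I2, COX6A2, COX7A1, COX7B2 and COX8C were at 0 in all 9 libraries, and COX6B2 had at most 2.11 normalized counts. NDUFA4L2, a hypoxia-induced paralog of the complex IV subunit NDUFA4, had 14.9, 19.7 and 6.65 counts with sgScr, 18.8, 27.0 and 25.8 with sgPHF8-1 and 12.7, 12.3 and 16.9 with sgPHF8-3. Each group overlapped the control. The log2 change of 0.78 with sgPHF8-1 (SE 0.30) did not pass the test (edgeR adjusted p = 0.0511; 0.0206 without sgScr B, 0.0387 without sgPHF8-1 A, 0.0464 with no filter on low counts), and at these counts the size of the difference is poorly set. The other members too low to test were the readthrough genes NDUFC2-KCTD14 and ATP5J2-PTCD1, the copies ATP5J2LP and ATP5L2, and NDUFB2-AS1, which together with these paralogs make 11.

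Complex V, the ATP synthase, was higher with sgPHF8-1 in 9 of 15 subunits (median log2 fold change 0.12), and in 1 of 15, ATP5F1, with sgPHF8-3 (median 0.005). The higher shares were 60%, against 15.2% of all genes, and 6.67%, below the 9.48% of all genes. With sgPHF8-1, 5 were higher by DESeq2, and likewise 5 without sgPHF8-1 B. ATP5B (now ATP5F1B; ENSG00000110955, chr12:57031959-57039768, minus strand), the catalytic beta subunit, had 12549, 12655 and 12723 counts with sgScr, 13920, 14864 and 13882 with sgPHF8-1 and 13276, 12802 and 12341 with sgPHF8-3. The sgPHF8-1 libraries lay above all others, while those of sgPHF8-3 spanned the controls. The increase with sgPHF8-1 was 12.5% (log2 0.17, SE 0.03, edgeR adjusted p = 0.000132), the sgPHF8-3 change was 0.02 (SE 0.03), and the difference of -0.15 (SE 0.03, edgeR adjusted p = 0.00206) passed by DESeq2 and without each library in turn. ATP5A1 (now ATP5F1A), the alpha subunit of the same head, had 8506, 8668 and 8458 counts with sgScr, 8977, 9701 and 8981 with sgPHF8-1 and 9048, 8894 and 8588 with sgPHF8-3. It was 7.87% higher with sgPHF8-1 (log2 0.11, SE 0.03, edgeR adjusted p = 0.00934), without overlap, and did not pass with sgPHF8-3 (log2 0.05, SE 0.03, edgeR adjusted p = 0.297). ATP5O, which attaches the stalk to the head, gained 14.9% with sgPHF8-1, and of the 3 genes for the membrane-rotor subunit c, ATP5G1 and ATP5G3 passed (10% and 6.9%) and ATP5G2 did not (3.4%). The gamma subunit ATP5C1, the central shaft, was at log2 -0.02 (SE 0.04) with sgPHF8-1 and -0.10 (SE 0.04, edgeR adjusted p = 0.0516) with sgPHF8-3.

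Summed over each complex, the counts were highest with sgPHF8-1, with 1 library of that group well above the others. All 95 members together took 0.758% ± 0.00098 of the counts with sgScr, 0.801% ± 0.022 with sgPHF8-1 and 0.764% ± 0.015 with sgPHF8-3 (SD, n = 3; described without a test, with no mitochondrial genes in the totals). Each sgPHF8-1 library lay above each sgScr library (0.784% to 0.826%, against 0.757% to 0.759%), and the sgPHF8-3 libraries ran from 0.749% to 0.778% across the control range. Without sgPHF8-1 B the sgPHF8-1 mean was 0.788%. Relative to the sgScr mean, the summed normalized counts with sgPHF8-1 were 1.05 for complex I, 1.05 for complex II, 1.1 for complex III, 1.05 for complex IV and 1.09 for complex V, and with sgPHF8-3 they lay between 0.996 and 1.02. sgPHF8-1 B gave the highest sum for every complex. Pseudogene rows of the same families took 0.0017% to 0.00221% of the counts in any library, far less than the members.

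**Figure D4:**
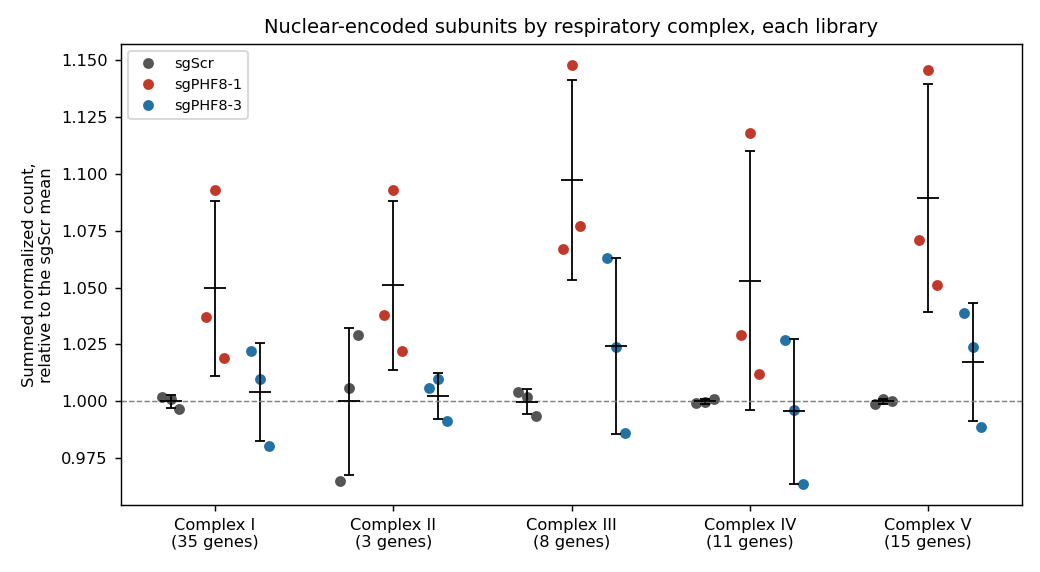
Summed normalized count of the nuclear subunits of each complex in each library, divided by the sgScr mean (y axis, not starting at 0), for sgScr (grey), sgPHF8-1 (red) and sgPHF8-3 (blue), with group mean and SD. The sgPHF8-1 libraries run from 1.02 to 1.09 for complex I and from 1.07 to 1.15 for complex III, and the highest red point of each complex is sgPHF8-1 B.

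Genes that act on mitochondrial DNA and RNA were more often higher than lower with both guides. Of 29 tested genes for mitochondrial transcription, replication and RNA handling, 16 were higher and 0 lower with sgPHF8-1 (median log2 fold change 0.12; 0 lower also by DESeq2 and at an unadjusted p under 0.05), and 11 were higher and 1 lower with sgPHF8-3 (median 0.074). The higher shares were 55.2% and 37.9%, against 15.2% and 9.48% of all genes, and the lower shares 0% and 3.45%, against 15.7% and 9.78%. DESeq2 called 10 and 6 higher, and without sgPHF8-1 B 15 and 11 were higher. The higher genes with both guides included TFB2M, a mitochondrial transcription factor (0.21 and 0.19), SSBP1, which coats single-stranded mitochondrial DNA (0.24 and 0.12), SUPV3L1 and PNPT1, the helicase and nuclease that degrade mitochondrial RNA (0.20 and 0.22; 0.13 and 0.15), and LRPPRC, which stabilises mitochondrial mRNA (0.09 and 0.09). TFAM, the main packaging and transcription factor of mitochondrial DNA, was higher with sgPHF8-1 (0.14, edgeR adjusted p = 0.00187) and did not pass with sgPHF8-3 (0.07, edgeR adjusted p = 0.159). The mitochondrial transcripts that these factors act on were not analysed here.

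Among 10 nuclear regulators of mitochondrial biogenesis, 3 were higher and 1 lower with sgPHF8-1, and 2 were higher and 1 lower with sgPHF8-3. The lower share of 10% lay near the 15.7% and 9.78% of all genes, and the higher shares were 30% and 20%, against 15.2% and 9.48%. DESeq2 called 2 and 1 of 10 higher, against 11.4% and 7.25% of all genes. MYC (log2 0.21 and 0.27) and GABPB1, a subunit of the ETS-family activator of respiratory genes (0.24 and 0.15), were higher with both guides. HIF1A, the hypoxia factor, was lower with both (-0.12 and -0.15). ESRRA was higher with sgPHF8-1 only (0.14, edgeR adjusted p = 0.0421), and the coactivator PPARGC1A, with 43.7, 40.3 and 69.3 normalized counts with sgScr, 63.2, 35.7 and 45.5 with sgPHF8-1 and 85.2, 78.9 and 51.8 with sgPHF8-3, did not pass with either guide (-0.07 and 0.50).

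Of 38 tested assembly factors and partners that the symbol rule does not take, 11 were higher and 1 lower with sgPHF8-1 (median 0.058), and 5 were higher and 1 lower with sgPHF8-3 (median 0.043). The higher share was 28.9% with sgPHF8-1, against 15.2% of all genes, and 13.2% with sgPHF8-3, near the 9.48% of all genes; the lower share was 2.63% with both, against 15.7% and 9.78%. DESeq2 called 9 and 3 of 38 higher, against 11.4% and 7.25% of all genes. CYCS, the mobile electron carrier cytochrome c, was higher with sgPHF8-1 (0.24, edgeR adjusted p = 2.17e-06), did not pass with sgPHF8-3 (0.09, edgeR adjusted p = 0.0547), and was lower with sgPHF8-3 than with sgPHF8-1 (-0.15, edgeR adjusted p = 0.00299). TMEM126B, a complex I assembly factor, was higher with both (0.35 and 0.27), as were LYRM7 of complex III assembly (0.26 and 0.20) and TACO1, which promotes translation of a complex IV subunit (0.24 and 0.24). SURF1, of complex IV assembly, was lower with sgPHF8-1 (-0.21, edgeR adjusted p = 0.00811).

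The citric acid cycle, which supplies the electrons, was called at about the share of all genes with sgPHF8-1. Of 17 enzymes and subunits, 2 were higher and 3 lower with sgPHF8-1 (median -0.001), and 0 were higher and 1 lower with sgPHF8-3 by edgeR (median -0.009; 4 higher and 3 lower at an unadjusted p under 0.05, where 4625 of all 14614 genes passed in either direction, and 0 and 0 by DESeq2). The sgPHF8-1 shares were 11.8% higher and 17.6% lower, against 15.2% and 15.7% of all genes, and the sgPHF8-3 shares 0% and 5.88%, against 9.48% and 9.78%. Citrate synthase CS (-0.12, edgeR adjusted p = 0.0138), OGDH (-0.19, edgeR adjusted p = 0.000105) and IDH3G (-0.13, edgeR adjusted p = 0.0462) were lower with sgPHF8-1, whereas SUCLG2 (0.18, edgeR adjusted p = 0.000557) and MDH2 (0.12, edgeR adjusted p = 0.00822) were higher. The difference between this list and the oxidative phosphorylation members was not tested.

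Respiratory subunit mRNAs are short and abundant, and both properties moved with the fold change over all genes. The tested members had a median transcript length of 670 bases, against 1138 bases for 14268 tested genes with a length. With sgPHF8-1 the median log2 fold change of all genes went from 0.028 for transcripts up to 600 bases to -0.057 for those above 4000 bases, and the members' medians were 0.077, 0.11, 0.14 and 0.077 in the 4 length classes that held any. Of genes above 7 on the log2 CPM scale, 35.7% were higher with sgPHF8-1, against 10 of the 17 members at that level. At lower levels, between 6 and 7 on that scale, 25.2% of genes and 15 of 25 members were higher. With sgPHF8-1 the members' median lay above that of all genes in each of these length classes, and the part of length or level in the members' changes was not tested. Among the 61 members with no other annotated gene on the same strand, 28 were higher and 2 lower with sgPHF8-1; among the 47 without a pseudogene row, 19 were higher and 2 lower, where 15.2% and 15.7% of all genes were.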

How the data were processed

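RNA from 9 SKMEL-147 cultures (sgScr, sgPHF8-1 and sgPHF8-3, 3 libraries each) was depleted of ribosomal RNA and sequenced as 50-base paired-end reads. Per the study's methods and the submitters' processing notes, the authors aligned reads to hg19 with STAR and deposited raw counts per Ensembl gene; bcl2fastq, Picard, HTSeq and DESeq2 are also named. The second deposited table holds a signal per gene symbol, the authors' normalized counts, which equal the raw counts divided by 1 size factor per library. All 57736 rows of the tables were paired by sorted identifier and matched within 0.01 count, which joined symbols to identifiers. Strand setting, annotation and the handling of reads with several matches are not given in the sources used here. Reads from overlapping genes, antisense partners and pseudogene copies are thus uncertain.

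Differences were tested on raw counts with the quasi-likelihood test of edgeR 4.0.16 (R 4.3.3; TMM normalization, filterByExpr, all 9 libraries in 1 fit, no covariate), with Benjamini-Hochberg adjustment over 14614 genes and a threshold of 0.05. Alternatives were DESeq2 1.42.0, other size factors, no filter, 2 groups only, a replicate block, the study's own rule and leaving out each library. The scripts were tested on simulated data. Library totals were 17366120 to 19838142 counts. Replicates differed by more than counting noise (mean chi-square per gene 1.35 to 4.21), so each was kept as a separate replicate. Percentages of change are the log2 fold changes on a linear scale. Transcript lengths and positions came from GENCODE (GRCh37), and promoter letters from RefSeq (GRCh38.p14).

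Members and gene lists were chosen with earlier results of these data known. Genes described in full were a fixed core of subunits, the tissue paralogs, the 3 members most changed in each direction of each comparison, the member with the smallest adjusted p in each complex, and PHF8; other members named, among them NDUFAF4, NDUFAF6, NDUFAB1, UQCRH, ATP5O and ATP5C1, and the genes named from the pathway lists were chosen after their values were seen. Some genes that these rules cover are not reported here.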

Additional observations from a re-analysis of the deposited data

Results flagged for a closer look

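For 15 members the effects of the 2 guides differed, by the edgeR test of sgPHF8-3 against sgPHF8-1, and every one of these log2 differences was below 0. In complex I they were NDUFA3 (-0.155), NDUFAB1 (-0.131), NDUFB3 (-0.136), NDUFS5 (-0.185), NDUFS7 (-0.160) and the assembly factor NDUFAF3 (-0.145). In complex II the difference was that of SDHB (-0.127). In complex III they were CYC1 (-0.168), UQCR10 (-0.141), UQCRH (-0.111) and UQCRQ (-0.129). In complex IV they were COX5B (-0.133) and COX7B (-0.143), and in complex V ATP5B (-0.151) and ATP5I (-0.148). PHF8 itself was also lower with sgPHF8-3 than with sgPHF8-1, by 0.478 on the log2 scale, so that the guide with the lower PHF8 transcript level was the one with fewer higher members. Transcript level does not measure protein, and the study reports efficient knockout by Western blot with both guides in this line. ATP5B, CYC1 and NDUFS5 were the 3 of the 15 that also passed by DESeq2 and without each library in turn. The cause of the difference between the guides was not tested.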

How the results depend on the processing

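By DESeq2, 22 members were higher and 1 lower with sgPHF8-1, 1 was higher and 1 lower with sgPHF8-3, and 4 were lower with sgPHF8-3 than with sgPHF8-1; over all genes, DESeq2 called 845 higher and 861 lower with sgPHF8-3, against 1385 and 1429 by edgeR, and 516 higher and 399 lower between guides, against 852 and 692. Of the 39 members called with sgPHF8-1 against sgScr, 19 passed by DESeq2 and without each library in turn, as did 1 of 6 with sgPHF8-3 and 3 of 15 between guides. A fit of only the 2 groups compared gave 8 higher and 4 lower with sgPHF8-3, and 7 lower between guides. Under the study's rule, an unadjusted p under 0.05 and an absolute log2 change over 0.25, members higher and lower numbered 2 and 0 with sgPHF8-1, 0 and 0 with sgPHF8-3, and 1 lower between guides. At any p, 3417, 2556 and 2033 of all 14614 genes had an absolute log2 change over 0.25 in these 3 comparisons. Leaving out each library in turn gave 23 to 38 higher and 1 to 4 lower with sgPHF8-1, 1 to 8 higher and 1 to 4 lower with sgPHF8-3, and 3 to 16 lower between guides; the members' mean share of counts ran from 0.757% to 0.758% (sgScr), 0.788% to 0.809% (sgPHF8-1) and 0.758% to 0.772% (sgPHF8-3). Fits without a library hold fewer samples, and the cause of the other shifts was not tested. RLE size factors and no filter on low counts left each count within 1.5 times. With the letter as a replicate block, 36 were higher and 3 lower with sgPHF8-1, 5 and 2 with sgPHF8-3, and 14 lower between guides. Libraries with the same letter did not deviate together (correlations -0.083 to 0.053), and pairs with different letters reached 0.143. With 3 libraries a group, these correlations do not settle whether a letter marks a shared preparation. For the 26 members named by the rule, 1013 of 1090 comparisons with an alternative kept direction and side of the threshold, 62 lost a call, 12 gained one, 3 uncalled values changed sign and 0 calls reversed. These comparisons include results that were not called in the main fit, and they leave out the study's rule. Size factors and shares without mitochondrial rows were not run, since no mitochondrial row entered the size factors or totals used here. Depth limited the low-count members most, with an SE of 0.30 for NDUFA4L2.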
